A study of Rattus norvegicus with 3 samples.

Results

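The Buffer library was prepared from retinas of wild-type Sprague Dawley rats whose eyes received 1 µl of citrate buffer (pH 4.5) intravitreally at postnatal day 1 (P1), with collection at P4. All 18425 genes of the deposited table were ranked by their level in this library, and the 14733 genes with at least 10 estimated reads (80.0%) were taken as its expressed genes. The other libraries came from retinas of wild-type rats. Their eyes received 1 µl of saline, or 10 µg of streptozotocin (STZ) in the same citrate buffer, at P1. STZ is an alkylating sugar that is toxic to pancreatic beta cells. For its intravitreal experiments at P1, the paper describes STZ in right eyes and citrate buffer in the left eyes of those rats. Whether the Buffer and STZ libraries came from the same rats is not stated. There was 1 library for each injection, and the sources used here do not state how many retinas or rats entered each. Buffer is itself an injected eye, and no uninjected retina was analysed here. With 1 library per condition no value has a replicate error and no test was possible.

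The total of the estimated reads was 21992702 in Buffer, and the 3 libraries lay between 21977843 and 22031249. Levels are given as TPM, the transcript abundance corrected for gene length and scaled to the same total in each library, which can be compared between genes. Intervals are exact 95% intervals of the read counts, and they cover counting error only, because PCR copies of a molecule could not be recognised. A count of 0 allows up to 3 reads, or 0.136 CPM, the reads scaled to the library total. Saline and STZ served to show how far a level moved between libraries. Among the 5621 genes with at least 1000 reads in Buffer, the central 95% of the Saline to Buffer TPM ratios ran from 0.849 to 1.15, and of the STZ to Buffer ratios from 0.731 to 1.29. Among the 3034 genes with 10 to under 100 reads, the Saline to Buffer ratios ran from 0.437 to 2.50, so the order of such genes is poorly fixed.

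The neonatal rat retina is still being built. Ganglion cells, horizontal cells, cones and most amacrine cells leave the cell cycle before birth, whereas progenitors that still divide after birth give rods, bipolar cells and Müller glia. Notch signalling keeps progenitors dividing, proneural basic helix-loop-helix (bHLH) factors start neuronal differentiation, and Otx2, Crx and Nrl set up the photoreceptor fate. Outer segments, the light-sensing part of photoreceptors, have not yet formed at this age. A bulk library averages all of these cells, and fewer cells of a type cannot be told apart from less RNA per cell.

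The most abundant transcript was Eef1a1, which brings aminoacyl-tRNA to the ribosome, at 6354 TPM (6316 to 6392, 107010 reads). It stood at 6722 TPM in Saline and 6054 TPM in STZ. Rps29, a protein of the small ribosomal subunit, followed at 5258 TPM, and the glycolytic enzyme Gapdh at 5199 TPM. Hmgn2, which binds nucleosomes, had 3933 TPM. The actin-binding thymosins Tmsb4x and Tmsb10 had 3324 and 3220 TPM, and the tubulins Tuba1a and Tuba1b had 3287 and 2655 TPM. The 25 most abundant genes were completed by the histone H3.3 gene H3-3b (2996 TPM), the prolyl isomerase Ppia (2989 TPM), the glycolytic enzymes Eno1 (2891 TPM) and Pkm (2711 TPM), the polyubiquitin gene Ubb (2580 TPM) and the ribosomal protein genes Rps23, Rpl38, Rpl37, Rps14, Rplp1, Rpl21, Rps15, Rps21, Rps2, Rpl31 and Rpl26, among others, which lay between 2476 and 3281 TPM. The list thus held general cell machinery and no gene particular to a retinal cell type. Of these 25 genes, 22 were also among the 25 most abundant in Saline and 22 in STZ.

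No small group of genes dominated the library. The 10 most abundant genes held 3.99% of the TPM, the 25 most abundant 8.07% and the 100 most abundant 21.0%, and 855 genes were needed to reach 50%. The median expressed gene had 25.1 TPM. A level of at least 1000 TPM was reached by 121 genes, a level from 100 to under 1000 TPM by 1916 genes, and together these 2037 genes made up 13.8% of the expressed genes. Most genes, 8106 of them (55.0%), lay between 10 and 100 TPM, 3500 lay between 1 and 10 TPM, and 1090 lay under 1 TPM. At the threshold, 105 genes had exactly 10 reads, with levels from 0.100 to 2.25 TPM, and 127 genes just outside had 9 reads. The table listed 1071 genes at 0 reads in Buffer.

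**Figure D1:**
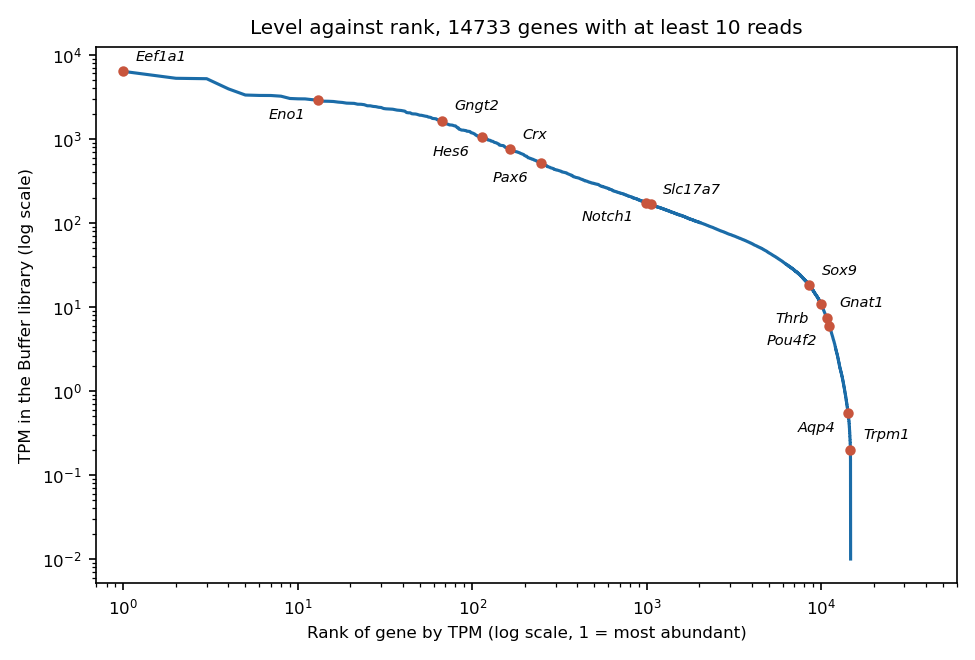
TPM of each of the 14733 expressed genes in the Buffer library (vertical axis, log scale) against its rank (horizontal axis, log scale), with named genes as red points. The curve falls from 6354 TPM for Eef1a1 through 1046 TPM for the bHLH gene Hes6 and 751 TPM for Crx to 0.200 TPM for the bipolar cell channel gene Trpm1.

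Genes for cytosolic ribosomal proteins and their paralogs numbered 82 among the expressed genes. They held 13.2% of the TPM but 2.45% of the reads, since they are short, and 58 of them were among the 100 most abundant genes. Their median was 1506 TPM. Of the 82 genes, 7 were under 300 TPM. The lowest were Rpl10l (7.32 TPM) and Rps4y2 (13.4 TPM), followed by Rps19 (42.1 TPM), Rpl7l1 (150 TPM), Rpl22l1 (151 TPM), Rps27l (180 TPM) and Rps6 (287 TPM). Of these 7, Rps19 and Rps6 had fractional counts, as did 30 of the 82 genes in all. How reads were shared with near-identical copies leaves such levels uncertain. A separate row, Rps19-2, had 2226 TPM from 7449 reads, also a fractional count, so the low level belongs only to the row named Rps19. Many ribosomal protein messenger RNAs are known to begin with a terminal oligopyrimidine (TOP) tract, a C followed by further C or T bases. This feature is shown because it was frequent in the most abundant class in the RefSeq promoter table (build GRCr8, 250 bases before to 50 bases after each start). A C followed by at least 4 C or T at the annotated start was found in 20 of 62 ribosomal protein genes (32.3%), against 369 of 13845 genes of the table with a promoter entry (2.67%) and 1 of 34 other genes among the 100 most abundant. The 30 bases around the start of 4 such genes are given with the tract in capitals.
Rps15 (2738 TPM, chr7:10068101-10068130, minus strand): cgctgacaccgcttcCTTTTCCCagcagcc
Rpl31 (2550 TPM, chr9:49143096-49143125, plus strand): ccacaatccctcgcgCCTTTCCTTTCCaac
Rpl19 (2261 TPM, chr10:83519049-83519078, plus strand): cgcgaccagcaagctCTTTCCTTTCgctgc
Rps7 (2252 TPM, chr6:50999431-50999460, minus strand): tcgcgagagctgtgtCTCTTTCTaagccgg

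Glycolysis, by which the retina is known to make lactate from glucose even when oxygen is present, was expressed throughout. All 22 listed genes were measured, against 80.0% of all genes of the table, and 16 of them reached 100 TPM, against 13.8% of the expressed genes. Their median was 301 TPM. After Gapdh, Eno1 and Pkm came Ldha, the lactate dehydrogenase subunit that favours lactate formation, at 2199 TPM (1939 TPM in Saline, 2093 TPM in STZ). Its partner Ldhb had 123 TPM, so Ldha was 17.9 times as high (17.0 to 18.8). The glucose transporter Slc2a1 had 397 TPM and held 99.8% of the TPM of the class I glucose transporters. Slc2a3, the neuronal transporter, had 0.690 TPM from 31 reads. Slc2a2, the transporter through which STZ enters pancreatic beta cells, had 1 read, and the insulin-responsive Slc2a4 had 7 reads. Among phosphofructokinases the order was Pfkp (546 TPM), Pfkl (206 TPM) and Pfkm (48.7 TPM). Eno1 was 23.4 times the neuronal enolase Eno2, and the hypoxia factor Hif1a (322 TPM) was 18.6 times Epas1 (17.3 TPM).

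Retinal progenitor genes were all measured, 26 of 26, against 80.0% of all genes of the table, with a median of 77.2 TPM. Ccnd1, the cyclin that drives progenitors through G1, was the highest with 751 TPM (755 TPM in Saline, 457 TPM in STZ). Pax6, the eye-field factor, had 517 TPM, and the fatty acid binding proteins Fabp5 and Fabp7 had 483 and 365 TPM. Of the homeobox genes, Rax had 233 TPM, Six3 158 TPM and Lhx2 129 TPM. The lowest of the list were Hmga2 at 4.96 TPM, Prtg at 2.31 TPM, Ccn1 at 1.52 TPM and Lin28b at 0.730 TPM from 50 reads. All 28 proliferation genes were measured as well, against the same 80.0%, at 26.6 TPM or more. Besides Ccnd1, the highest were its kinase Cdk4 (396 TPM), the replication clamp Pcna (295 TPM) and the helicase subunit Mcm7 (234 TPM), and the division marker Mki67 had 130 TPM.

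The cell cycle regulators were expressed unequally within their families. Ccnd1 held 97.2% of the D cyclin TPM, with Ccnd3 at 17.5 TPM and Ccnd2 at 3.99 TPM, and the Ccnd1 to Ccnd3 ratio was 42.9 (38.4 to 48.1), beside ratios of 36.3 for Saline and 27.6 for STZ. Ccna2 was 31.9 times Ccna1, the cyclin of germ cells. Among the Cip/Kip inhibitors, which stop the cycle, Cdkn1b had 273 TPM, Cdkn1c 34.2 TPM and Cdkn1a 22.4 TPM. The Ink4 inhibitor Cdkn2c had 53.0 TPM, whereas Cdkn2b had 2.14 TPM and Cdkn2a had 4 reads. Mycn (101 TPM) was above Mycl (56.6 TPM), and Myc stood at 3.88 TPM. Ccnb2 and Ccnb1 were close at 62.3 and 57.0 TPM (ratio 1.09, 1.01 to 1.18), and their order was the opposite in Saline and STZ.

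All 24 Notch pathway genes were measured, against 80.0% of all genes of the table. Notch1 was the main receptor with 174 TPM, 8.77 times Notch2 (8.40 to 9.16), while Notch3 and Notch4 had 6.67 and 4.07 TPM. Among the ligands, Dll3 (100 TPM), which acts within the same cell, and Dll1 (85.3 TPM) led, ahead of Dll4 (30.9 TPM), Jag2 (18.8 TPM) and Jag1 (2.66 TPM). Of the Notch effectors, Hes5 had 290 TPM and Hes1 43.3 TPM, a ratio of 6.68 (6.04 to 7.40). Hes5 had 1174 reads and Hes1 576 reads, with implied gene lengths of 361 and 1183 bases. The ratio thus rests in part on these lengths, whose error the interval does not cover. Hes5 had 203 TPM in Saline and 189 TPM in STZ, so its Buffer level was the highest of the 3 libraries.

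Neurogenic genes, which mark progenitors leaving the cycle and their newborn daughters, were led by Hes6, an inhibitor of Hes1 that promotes differentiation, at 1046 TPM (1025 TPM in Saline, 675 TPM in STZ). The bHLH factors Neurod1 and Neurod4 had 571 and 431 TPM, and the antiproliferative gene Btg2 had 403 TPM. The proneural factor Neurog2 had 30.3 TPM. Atoh7, the factor needed for ganglion cell birth, had 3 reads and was the only one of the 20 genes under the minimum. A TATA box, the sequence close to the start where TATA-binding protein docks, was searched as TATAAA or TATATA between 45 and 10 bases before the start, on the gene's own strand. It was found in 3 of the 12 measured neurogenic genes with a promoter entry, namely Hes6, Neurod1 and Neurog2. The box also occurred in 4 of 19 Müller glia, 6 of 15 translation and 7 of 13 lens genes. It was absent from the promoters of 22 proliferation and 27 phototransduction genes. It was also found in 11 of 79 genes among the 100 most abundant (13.9%), against 195 of 11435 expressed genes (1.71%). Examples from the most abundant and the neurogenic genes are given from 45 bases before to 15 bases after the start, with the box in capitals.
Gapdh (5199 TPM, chr4:159652453-159652512, minus strand): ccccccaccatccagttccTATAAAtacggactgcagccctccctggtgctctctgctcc
Tmsb10 (3220 TPM, chr4:106569126-106569185, minus strand): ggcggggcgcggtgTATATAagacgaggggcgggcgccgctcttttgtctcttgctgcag
Hes6 (1046 TPM, chr9:99451082-99451141, minus strand): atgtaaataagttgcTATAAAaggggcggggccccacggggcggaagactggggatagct
Neurod1 (571 TPM, chr3:84770440-84770499, minus strand): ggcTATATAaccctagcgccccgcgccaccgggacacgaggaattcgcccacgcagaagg

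Photoreceptor factors had the highest median of the cell type lists, 153 TPM. All 15 were measured, against 80.0% of all genes, and 9 reached 100 TPM, against 13.8% of the expressed genes. Crx, which switches on photoreceptor genes, had 751 TPM (680 TPM in Saline, 798 TPM in STZ). Nrl, the factor that fixes the rod fate, had 681 TPM, and Crx was 1.10 times as high (1.07 to 1.14). This ratio was 1.07 in Saline and 0.988 in STZ, where the order was the opposite. Rorb, a nuclear receptor upstream of Nrl, had 393 TPM and Otx2 had 376 TPM. The rod factor Nr2e3 had 99.6 TPM. The cone factors were lower, with Rxrg at 23.3 TPM and the thyroid hormone receptor Thrb at 10.9 TPM, and Nrl was 62.4 times Thrb (57.7 to 67.5).

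Of 41 phototransduction and outer segment genes with a row in the table, 38 were measured (92.7%, against 80.0% of all genes). Of these 38, 18 reached 100 TPM, against 13.8% of the expressed genes. The cone transducin gamma subunit Gngt2 was the highest at 1653 TPM (1466 TPM in Saline, 1795 TPM in STZ). Pde6g, the inhibitory subunit of the rod phosphodiesterase, had 781 TPM, the cone transducin alpha subunit Gnat2 had 770 TPM and the transducin beta subunit Gnb1, which many cell types share, had 540 TPM. The short-wavelength opsin Opn1sw had 78.8 TPM. The medium-wavelength opsin Opn1mw was listed at 0 reads, and the guanylate cyclase Gucy2f, which restores cGMP after light, had 3 reads. The third gene under the minimum, the row named Gucy2d with 1 read, carries the identifier that RefSeq gives to the olfactory cyclase and so does not report on the retinal enzyme. The row that RefSeq ties to the retinal cyclase RETGC-1, Gucy2e, was not on the list and had 5.10 TPM from 190 reads. The kinase Grk1 (4.34 TPM) and the cyclase activators Guca1b (4.49 TPM) and Guca1a (1.69 TPM) were low as well. By contrast, rod arrestin, Sag (330 TPM), the disc proteins Rom1 (463 TPM) and Prph2 (180 TPM) and the retinoid carrier Rbp3 (468 TPM) were each above the list median of 86.2 TPM.

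Rod and cone members of the same function did not follow a common order. The rod gene was higher for the catalytic phosphodiesterase (Pde6a over Pde6c, 7.03, 5.99 to 8.30) and its inhibitor (Pde6g over Pde6h, 83.6, 65.9 to 108). It was also higher for both channel subunits (Cnga1 over Cnga3, 29.3, 23.5 to 37.0, and Cngb1 over Cngb3, 23.9, 21.0 to 27.3) and for arrestin (Sag over Arr3, 156, 105 to 244). Transducin had the opposite order. Gnat2 was 103 times the rod subunit Gnat1 (88.6 to 122), which had 7.44 TPM in Buffer, 5.95 TPM in Saline and 12.8 TPM in STZ. Gngt2 was 5.49 times the rod subunit Gngt1 (5.12 to 5.90), and Gngt1 had 301 TPM in Buffer, 280 TPM in Saline and 668 TPM in STZ. Gnb3 and Gnb1 were close (0.945, 0.919 to 0.972), and their order was the opposite in Saline (1.06) and STZ (1.17). The direction of the other 7 ratios was the same in all 3 libraries. These ratios compare genes by TPM, so an error in a gene model's length would change them, and the counting intervals do not cover it.

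**Figure D2:**
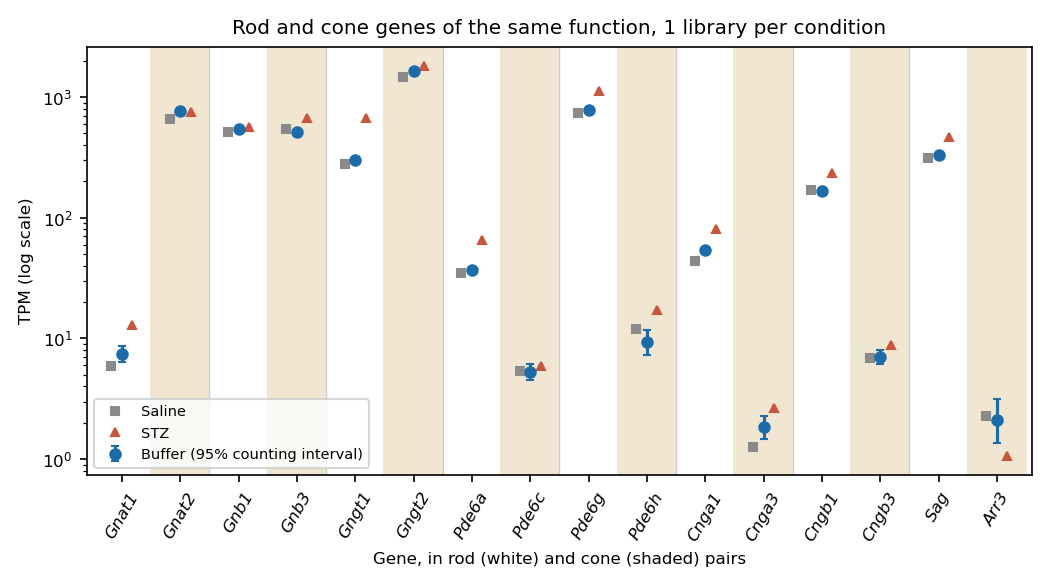
TPM (vertical axis, log scale) of rod genes (white columns) and cone genes (shaded columns) of the same function in the 3 libraries, with 95% counting intervals for Buffer. The cone genes Gnat2 and Gngt2 sit above the rod genes Gnat1 and Gngt1, while Arr3, Pde6c, Pde6h, Cnga3 and Cngb3 sit below their rod partners, and the Gnb1 column is of a gene shared with other cell types.

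Promoters of these genes are shown because Crx is known to bind the core TAATCC, which reads GGATTA on the other strand. Either hexamer occurred within the RefSeq promoter window in 9 of 27 measured phototransduction genes with an entry (33.3%), against 785 of 13845 genes of the table (5.67%) and 278 of the 3412 expressed genes with a CpG ratio, the observed over the expected number of CG dinucleotides, under 0.6 (8.15%). The median CpG ratio of those 3412 genes, 0.372, was above the 0.243 of the phototransduction genes. Of the lists with about the same ratio, pigment epithelium held a hexamer in 3 of 11 (27.3%), lens in 3 of 13 (23.1%) and microglia in 1 of 12 (8.33%). In the astrocyte list it was 1 of 9 (11.1%), and in the ciliary and iris epithelium list 0 of 8. The 9 genes were Rbp3, Aipl1, Gngt1, Prph2, Cngb1, Abca4, Opn1sw, Pde6a and Guca1a, whose levels spanned 1.69 to 468 TPM. Crx itself held the hexamer at 2 places, 1 of them in the stretch shown. Such a match is a stretch of letters and was not tested as a binding site. The 120 bases before the start are given for 5 genes with the hexamer in capitals.
Crx (751 TPM, chr1:85681853-85681972, minus strand): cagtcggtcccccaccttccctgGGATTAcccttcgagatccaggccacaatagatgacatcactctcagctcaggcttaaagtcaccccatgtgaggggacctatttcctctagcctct
Rbp3 (468 TPM, chr16:9273667-9273786, plus strand): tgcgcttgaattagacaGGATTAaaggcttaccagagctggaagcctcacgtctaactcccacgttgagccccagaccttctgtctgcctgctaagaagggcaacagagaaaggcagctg
Aipl1 (418 TPM, chr10:57163456-57163575, minus strand): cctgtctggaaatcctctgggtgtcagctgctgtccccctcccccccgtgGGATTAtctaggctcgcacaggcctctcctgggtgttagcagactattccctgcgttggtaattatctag
Cngb1 (168 TPM, chr19:9732526-9732645, plus strand): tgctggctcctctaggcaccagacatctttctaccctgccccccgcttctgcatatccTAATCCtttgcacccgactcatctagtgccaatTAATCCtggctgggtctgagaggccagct
Opn1sw (78.8 TPM, chr4:58945826-58945945, minus strand): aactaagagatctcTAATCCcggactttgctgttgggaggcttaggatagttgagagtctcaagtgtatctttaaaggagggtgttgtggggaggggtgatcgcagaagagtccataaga

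Retinal ganglion cell genes were measured in full, 30 of 30, against 80.0% of all genes, with a median of 21.7 TPM. The highest were Tubb3 (403 TPM), the ubiquitin hydrolase Uchl1 (400 TPM), the synuclein Sncg (231 TPM) and the microtubule regulator Stmn2 (179 TPM), and other young neurons also express Tubb3 and Uchl1. The factors that define these cells were far lower. Pou4f1, Pou4f2 and Pou4f3, which direct ganglion cell differentiation, had 15.2, 5.89 and 3.44 TPM, and Pou4f1 was 2.59 times Pou4f2 (2.20 to 3.05). Opn4, the opsin of light-sensing ganglion cells, had 3.92 TPM from 95 reads, and Tbr1 had 0.980 TPM.

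Of 30 amacrine cell genes, 29 were measured (96.7%, against 80.0% of all genes). The homeobox gene Meis2 (223 TPM), calretinin (Calb2, 213 TPM) and Tfap2b (213 TPM), a factor of amacrine and horizontal cells, were among the highest. The vesicular transporter for GABA and glycine, Slc32a1, had 114 TPM. Of the glycine transporters, Slc6a5 had 3 reads, whereas Slc6a9 had 69.0 TPM. Starburst amacrine genes were low, with Chat at 4.10 TPM and Slc18a3 at 2.67 TPM, as was the dopaminergic gene Th with 2.15 TPM. Horizontal cell genes were measured in 9 of 9 with a row, against the same 80.0%. Tpm3 (224 TPM), Tfap2b and the septin gene Sept4 (86.0 TPM) led, all of which other cells express, while Prox1 had 55.5 TPM and the more restricted Onecut1, Lhx1 and Onecut2 had 5.12, 1.54 and 1.42 TPM.

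Bipolar cells are among the last neurons to be born, and 22 of their 26 listed genes were measured (84.6%, against 80.0% of all genes). Otx2 (376 TPM), Samd7 (152 TPM), Gnao1 (146 TPM) and Pcp4 (135 TPM) were the highest, and Otx2 and Samd7 are shared with photoreceptors. The ON bipolar receptor Grm6 and its partner Nyx already had 57.7 and 116 TPM. Trpm1, the channel that Grm6 controls, had 0.200 TPM from 13 reads, so Grm6 was 288 times as high (168 to 542). This ratio was 15.8 in Saline, where Trpm1 stood at 3.14 TPM, and 244 in STZ. Trpm1 is also known from pigment cells, and some pigment genes were higher in Saline as well. Tyr had 0.510 TPM in Buffer and 3.76 TPM in Saline, Pmel 9.83 and 36.6 TPM, Tyrp1 2.76 and 8.53 TPM and Dct 6.16 and 14.9 TPM. In the pigment epithelium list, the highest member, Ttr, was lower in Saline (90.4 and 75.4 TPM), and Rgr hardly moved (5.52 and 5.57 TPM). The summed level of the pigment epithelium list was 167 TPM in Buffer, 207 TPM in Saline and 158 TPM in STZ. The part of pigment cells in the Trpm1 level was not tested. Gng13, Vsx1, Scgn and Sebox, all genes of maturing bipolar cells, had 4, 3, 2 and 0 reads.

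All 27 listed Müller glia genes were measured, against 80.0% of all genes, with a median of 69.7 TPM. Dkk3 (961 TPM), Dbi (957 TPM), Crym (675 TPM) and Car2 (487 TPM) led, and such genes are also known from progenitors or neurons. The retinaldehyde binding protein Rlbp1 had 304 TPM and glutamine synthetase, Glul, 170 TPM. Markers of mature glia were low, with the potassium channel Kcnj10 at 8.11 TPM and the water channel Aqp4 at 0.540 TPM. Apoe, which microglia also express, had 93.5 TPM in Buffer, 141 TPM in Saline and 320 TPM in STZ. The summed level of the Müller glia list was 4890, 4924 and 4753 TPM in the same order, and that of the microglia list 178, 220 and 521 TPM, whose part in the Apoe level was not tested. Of 10 astrocyte genes, 9 were measured, led by Fabp7, Aldoc (203 TPM), Slc1a2 (38.2 TPM) and Gfap (12.2 TPM), and Aldh1l1 was listed at 0 reads.

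Genes of vessels and immune cells were detected at low levels. All 20 microglia genes were measured, against 80.0% of all genes. They lay between 0.820 TPM for Ptprc and 24.0 TPM for the complement gene C1qa, with C1qb (21.5 TPM) and Aif1 (17.8 TPM) also among the highest. Their summed level was 178 TPM in Buffer, 220 TPM in Saline and 521 TPM in STZ, so Buffer was the lowest. Of 18 endothelial genes, 17 were measured (94.4%, against the same 80.0%) and Robo4 had 0 reads. The VEGF receptor Kdr had 207 TPM, but Ramp2, Cldn5 and Flt1 had 15.1, 14.0 and 9.02 TPM, and Pecam1 had 1.86 TPM. Kdr is also known from retinal progenitors. The 12 pericyte genes had a median of 1.81 TPM. Vegfa, the ligand that guides vessels over the retina, had 291 TPM and 89.8% of the TPM of the VEGF ligands.

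Markers of tissues next to the retina were mostly low. Pigment epithelium genes reached the minimum in 11 of 17 (64.7%, against 80.0% of all genes). They were led by Ttr (90.4 TPM), Trpm3 (39.5 TPM), Pmel (9.83 TPM) and Stra6 (7.87 TPM), while the defining gene Rpe65 had 0 reads, Lrat 2 and Best1 5. Lens genes reached the minimum in 15 of 26 (57.7%), none above 8.82 TPM (Cryga), and Cryba2, Crybb2 and Lgsn had 0 reads. Their summed level was 66.6 TPM in Buffer, 153 TPM in Saline and 866 TPM in STZ. Ciliary and iris epithelium genes reached the minimum in 12 of 14 (85.7%). Summed, they gave 282 TPM in Buffer, 652 TPM in Saline and 244 TPM in STZ, with Aldh1a1 (91.2 TPM in Buffer, 327 TPM in Saline) the highest of them in those libraries. Blood was seen through the globins, with Hba1 at 143 TPM, Hbb at 99.6 TPM and Hba2 at 98.4 TPM, while Ahsp, S100a8, S100a9 and Pf4 had 0 reads. Globin counts were fractional and their near-identical copies leave the split uncertain. Of 13 skeletal muscle and cornea genes 4 reached the minimum (30.8%). Of 10 oligodendrocyte genes 7 reached it (70.0%), led by Cnp at 65.1 TPM, with Sox10 at 0.830 TPM and Mag and Olig1 at 2 reads each. The leading cell type genes were thus those of the neural retina, and the part of neighbouring tissue in single levels was not tested.

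**Figure D3:**
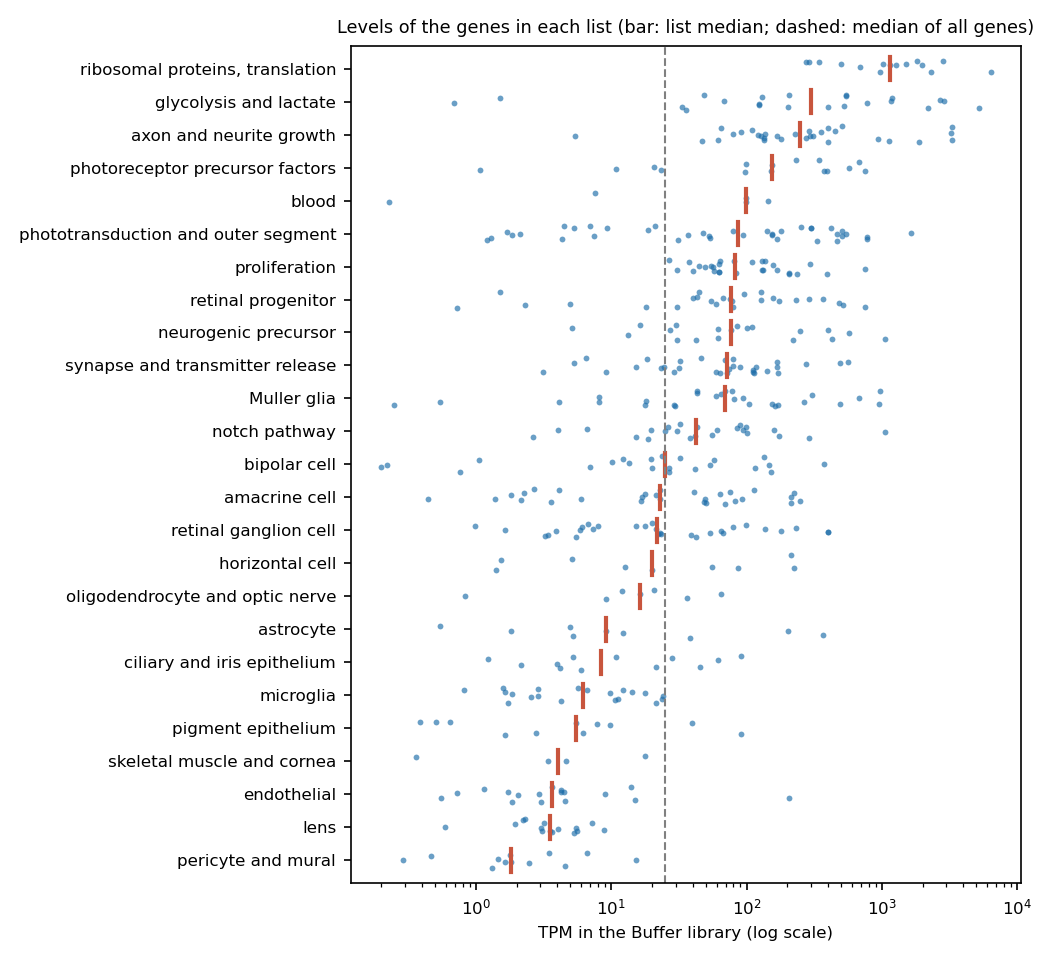
TPM in Buffer (horizontal axis, log scale) of each measured gene in the 25 lists, with the list median as a red bar and the median of all expressed genes, 25.1 TPM, as a dashed line. List medians run from 1143 TPM for translation genes and 301 TPM for glycolysis down to 3.55 TPM for lens and 1.81 TPM for pericyte genes.

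Genes on the neurite and synapse lists were abundant. All 30 axon and neurite growth genes were measured with a median of 250 TPM, led by Tmsb4x, Tuba1a, Tmsb10 and the microtubule destabiliser Stmn1 (1866 TPM). Tubb5 (1745 TPM), a tubulin of dividing cells, was above Tubb2b (1124 TPM), and the neuronal Tubb3 was 0.231 times Tubb5 (0.225 to 0.237). All 31 synapse genes were measured, against the same 80.0%, with a median of 71.5 TPM. They were led by synaptophysin (Syp, 563 TPM), with Vamp2 (273 TPM) and Syt1 (172 TPM) also among the highest. Isoforms of ribbon synapses, the continuously releasing contacts of photoreceptors and bipolar cells, were the higher ones in several families. The syntaxin Stx3 (167 TPM) held 46.0% of the TPM of the plasma membrane syntaxins. The complexins Cplx4 (118 TPM) and Cplx3 (79.5 TPM) were above Cplx2 (71.5 TPM) and Cplx1 (18.5 TPM). By reads, Cplx4 (573) was below Cplx2 (1044), so their order depends on the correction for gene length. The glutamate transporter Slc17a7 (167 TPM), which photoreceptors and bipolar cells use, was 7.15 times Slc17a6 (6.65 to 7.70), the transporter of ganglion cells. The synapsins Syn1, Syn3 and Syn2, which ribbon synapses lack, had 29.0, 9.21 and 6.55 TPM.

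Across 80 families of paralogs, 295 genes had a row in the table and 273 were measured, against 80.0% of all genes. In 62 families the leading member held over 50% of the family TPM, and in 14 it held over 90%. Among those 14 were the families led by Slc6a9, Slc2a1, Gnat2, Eef1a1, Ckb, Ccnd1, Ccna2, Hmgn2, Cdkn2c, Rorb, Eno1, Hif1a and Ldha. The creatine kinase Ckb had 2272 TPM and was 48.4 times Ckmt1, and Rorb was 28.8 times Rora (27.4 to 30.3). Of the sodium pump beta subunits, Atp1b2 (353 TPM) was 2.48 times Atp1b3. The SoxE factor Sox8 (69.7 TPM) was 3.83 times Sox9. In 18 families no member held over 50%, among them the E2f factors, where E2f1 led with 28.4%, the AMPA receptor subunits (Gria4, 28.7%) and the synaptotagmins (Syt1, 29.5%).

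For 3 families the interval of the ratio between the first and second member held 1, so their order could not be told. These were Gria4 and Gria1 (27.4 and 26.2 TPM, 0.952 to 1.15), Grin1 and Grin2c (32.6 and 32.2 TPM, 0.944 to 1.09), and Rxrb and Rxra (61.2 and 58.2 TPM, 0.962 to 1.15). The same member led in Saline in 77 of the 80 families and in STZ in 75. The families with another leader were the B cyclins in both, the beta-thymosins and NMDA receptor subunits in Saline, and the E2f, Irx and DNA methyltransferase families and the PDGF ligands in STZ. Apart from the PDGF ligands, whose leader Pdgfd had 9.83 TPM, and Irx5 over Irx6 (1.56), the first and second members of these families differed by less than 1.3 times in Buffer. By read count in place of TPM, 12 families had another leader, since longer transcripts give more reads.

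**Figure D4:**
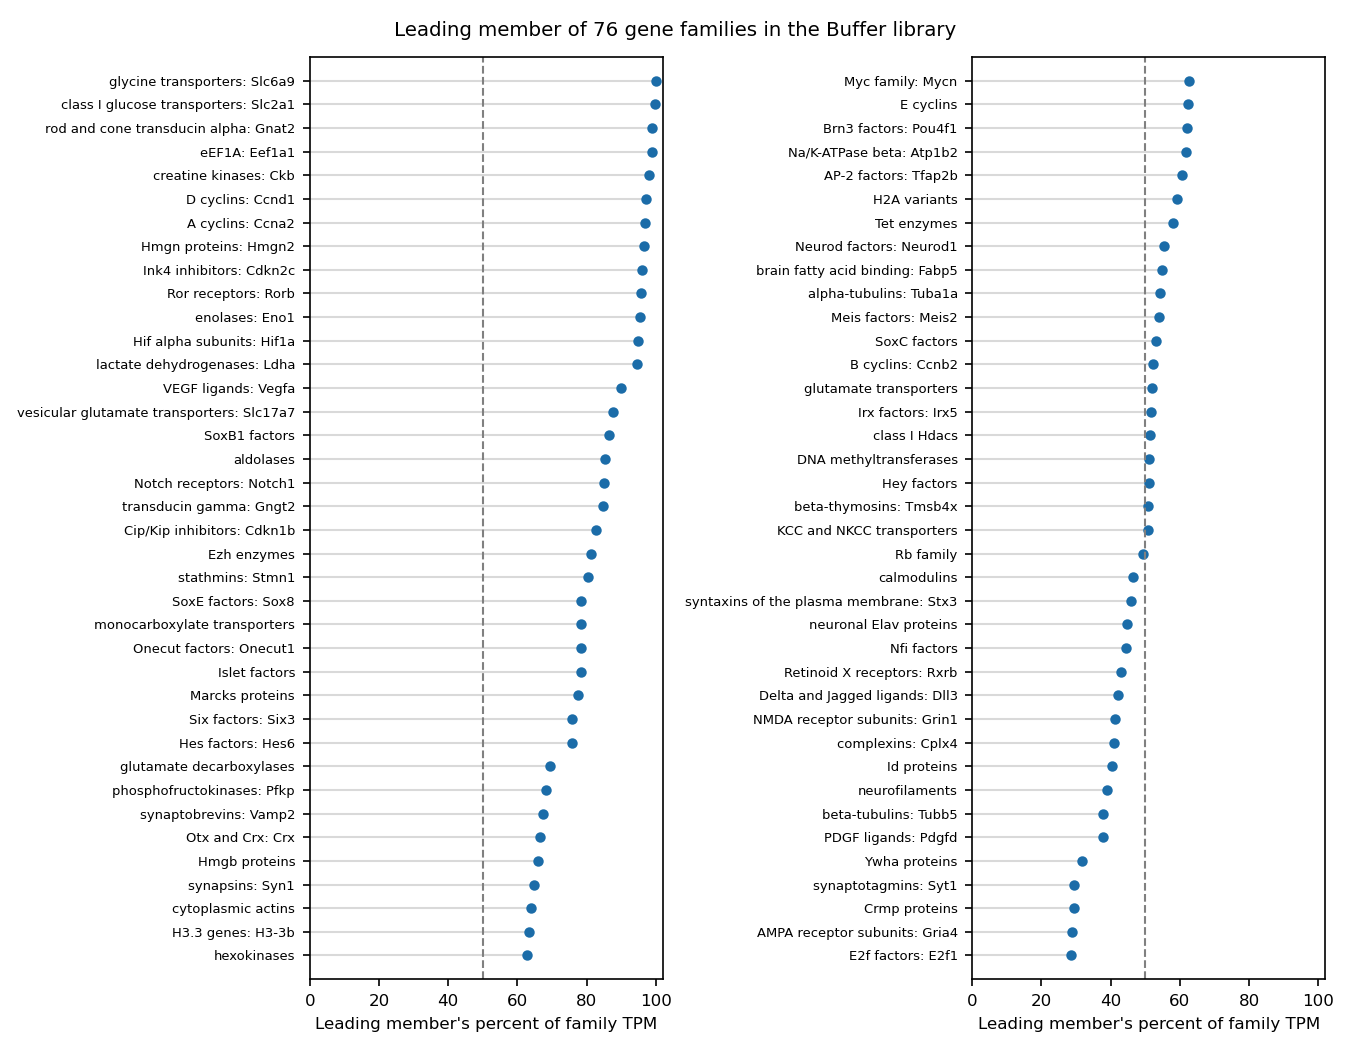
Share of the family's TPM held by its leading member in Buffer (horizontal axis, percent) for 76 of the families, with the leader's symbol where the text names it and the 50% line dashed. The shares run from 100% for Slc6a9, whose only paralog had 3 reads, down to 28.4% for E2f1.

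Promoter composition differed along the whole ranking. The CpG ratio, whose expected number comes from the C and G content of the window, had a median of 0.905 among the 79 of the 100 most abundant genes with a promoter entry. It was 0.862 for ranks 101 to 1000, 0.827 for ranks 1001 to 5000, 0.778 for ranks 5001 to 10000 and 0.563 for the remaining expressed genes, and 0.298 for 2410 genes under 10 reads. The 38 phototransduction genes, with a median level of 86.2 TPM, had a median ratio of 0.243 over 27 promoters, below the median of each rank class. Low medians were also found in other lists, among them microglia (0.225), pigment epithelium (0.238), lens (0.252), ciliary and iris epithelium (0.269) and astrocyte genes (0.299), whereas the ganglion and amacrine lists had 0.723 and 0.660. TATA boxes were most frequent at both ends of the ranking, in 13.9% of the promoters in the top 100, 0.811% for ranks 1001 to 5000, 0.784% for ranks 5001 to 10000 and 5.60% of genes under 10 reads.

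**Figure D5:**
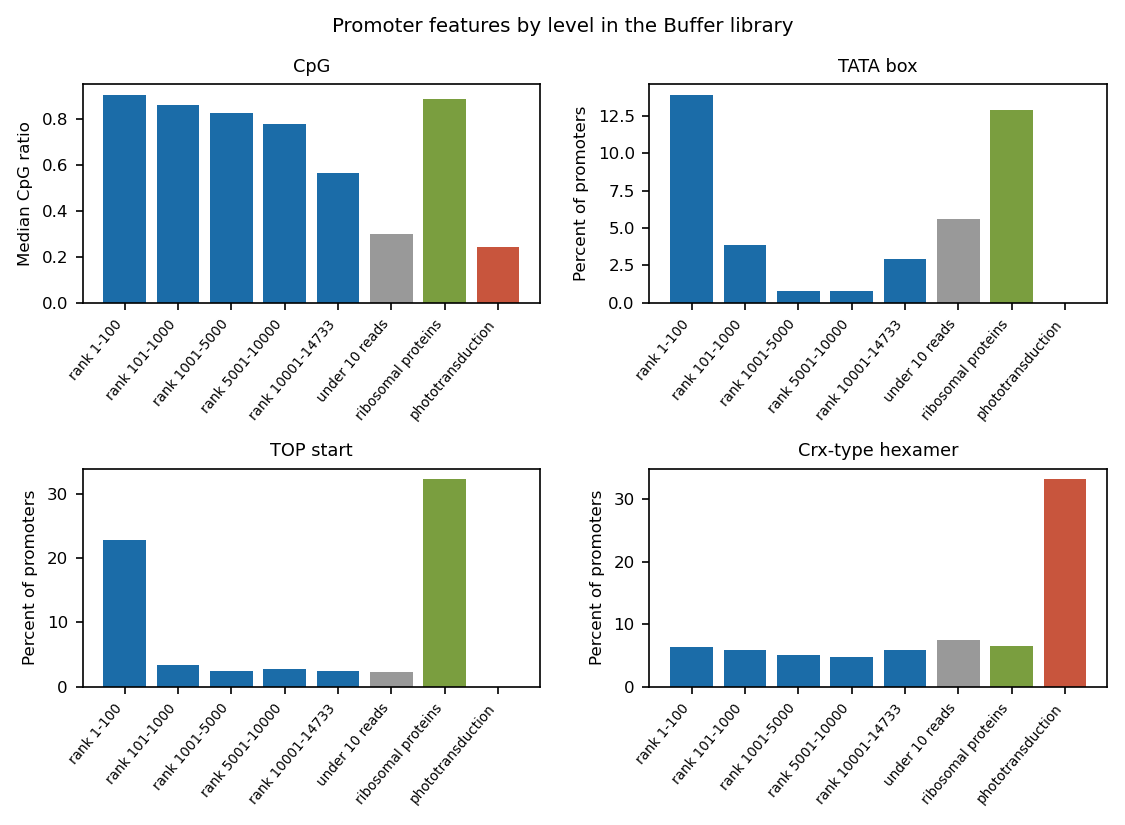
Median CpG ratio and percent of promoters with a TATA box, a TOP start or a Crx-type hexamer (vertical axes) by rank of TPM in Buffer, for genes under 10 reads and for 2 gene groups (horizontal axes). The CpG ratio falls with rank from 0.905 to 0.563, TOP starts peak at 32.3% in ribosomal protein genes and Crx-type hexamers at 33.3% in phototransduction genes.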

How the data were processed

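Per the labels, total RNA of dissected retinas was made into TruSeq libraries, 1 per injection. The study's methods state that reads were trimmed with Perl scripts, mapped with TopHat2 at up to 2 mismatches and that reads with several locations were discarded; the submitters' processing notes name FastQC, TopHat2 and the build rn6. The authors deposited FPKM, made with a custom R script, TPM and estimated counts of reads per gene, as deposited. How the TPM and estimated counts were made by the authors is not given in the sources used here. TPM equalled 1.96 times FPKM, and 12.9% of the counts in Buffer were fractional. Counts were rounded only for intervals.

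Genes with at least 10 reads in Buffer were kept and ranked by TPM. Exact Poisson intervals served for levels, and exact Clopper-Pearson intervals of read counts, scaled by each gene's TPM per read, for ratios; both were tested on simulated data. No test was run, since there was 1 library per condition. Of the 25 lists' 538 entries 12 had no row in the table, and of the 304 family symbols 9 had none. The genes, lists and families were chosen with earlier results of these data known. Genes were named from the 25 most abundant, the 4 highest and the unmeasured members of each list, and the first, second and unmeasured members of families; many of these are covered only by counts, ranges and medians, the choice among them and all other named genes were made after their values were seen, and some are not reported here. For 4 families no share was drawn. Of 18425 identifiers, 17120 matched RefSeq for GRCr8, used for names, for promoters (13845 genes, the first listed start of each) and for 26 symbols that the table stores as dates. Python 3.11.15 with numpy, pandas, scipy and matplotlib was used.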

Additional observations from a re-analysis of the deposited data

How the results depend on the processing

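No paired analysis was possible because each condition had 1 library, and for the same reason no replicate could be left out. The number of expressed genes, of measured list genes (440 of 488) and of families with a leader over 50% stayed within 1.5 times under every alternative computed. The share of the 10 most abundant genes, 3.99% of the TPM, was 2.56% of the reads, 4.04% with whole-number counts only and 3.93% in STZ. The number of genes holding 50% rose from 855 to 1454 with reads in place of TPM, since reads are not corrected for length. With whole-number counts only, 7 of 78 families had another leader. Of the 25 list medians, 9 moved by over 1.5 times with CPM in place of TPM, 7 with unmeasured members included, 3 in Saline and 4 in STZ. Levels under about 100 reads are limited by counting error.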

Other observations

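Chromatin genes that no comparison above covers were abundant. Hmgb2 (1254 TPM), which dividing cells are known to carry, was 3.60 times Hmgb3 (3.49 to 3.72), and the histone variant H2az1 (1058 TPM) was 2.01 times H2az2. Ezh2, the Polycomb methyltransferase of dividing cells, had 135 TPM and was 4.32 times Ezh1 (4.06 to 4.59). Dnmt1 (92.9 TPM) and Dnmt3a (79.3 TPM) were close, Tet3 (53.8 TPM) led the Tet enzymes and Hdac2 (288 TPM) the class I histone deacetylases. Hmgn1 was listed at 0 reads in Buffer and in Saline but at 1314 reads (122 TPM) in STZ. Its paralog Hmgn2 stood at 3933 TPM in Buffer with a fractional count, and a listed 0 among estimated counts can be a failed estimate. The ribosomal protein gene Rpl30, also with a fractional count in Buffer, had 966 TPM there, 1.08 TPM from 3 reads in Saline and 39.6 TPM in STZ.

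Ranked by reads, Dkk3 was the fourth gene of the library with 52915 reads, although it ranked 126 by TPM, and Eif4g2 (45070 reads) and Srrm2 (38906 reads) were also among the first 15. The length implied by the deposited reads and FPKM was 4897 bases for Dkk3 and 93 bases for Rps29. Of the 25 most abundant genes by TPM, 15 had an implied length under 600 bases.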
